A study of Mus musculus with 8 samples.

Results

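Control PGCLCs were compared with the control ESCs they were derived from, which is the change from a cultured pluripotent cell to an early germ cell in this system. The comparison rests on 4 of the 8 samples, the 2 control ESC and the 2 control PGCLC samples, assigned to their groups by the labels. Both groups carried the Blimp1mVenus reporter, a fluorescent protein driven by the Prdm1 locus sequences, together with floxed alleles of Tfap2c, which had not been recombined. They came from 2 ESC lines of this genotype. The ESCs were kept in medium with LIF and with PD0325901 and CHIR99021, which inhibit MEK and GSK3. The PGCLCs were made from them through epiblast-like cells and embryoid bodies in the presence of BMP4, BMP8b, SCF, LIF and EGF, and cells positive for Blimp1mVenus were sorted, so the Prdm1 reporter was part of the selection. The 4 other samples were ESCs and PGCLCs whose Tfap2c alleles had been removed by transient expression of Cre. They entered the fit to estimate the spread between samples and are given below where the change differed between the genotypes. The labels do not tie replicate numbers to cell lines, and the p-values then cover only the scatter among these samples, which may be technical. RNA was hybridized to Affymetrix mouse expression arrays, and the values are log2 signals, on which a difference of 1 is a 2-fold change. Among the probe sets that name 1 gene, the brightest on average across all 8 arrays stood for its gene, which gave 18193 genes. Levels are comparable between samples and not between genes.

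Mouse primordial germ cells arise from the epiblast when BMP signals induce Prdm1, Prdm14 and Tfap2c, which together silence the somatic program and set up the germ cell program. The cells express the core pluripotency factors. Later they erase DNA methylation and imprints and migrate to the gonad under the control of receptors such as Kit and Cxcr4. There they enter meiosis or mitotic arrest. PGCLCs correspond to the stage soon after specification, before they have reached a gonad.

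The 2 control PGCLC arrays differed in their control probe sets. Averaged over the polyadenylated spike-in controls, log2 signal was 7.91 in control PGCLC sample 2 and 5.62 to 5.91 on the 3 other control arrays. For Gapdh the 3′ probe set stood above the 5′ probe set by 0.95 in that sample and by 0.48 in control PGCLC sample 1. It did so by 0.31 in both control ESC samples. In knockout cells this gap was 0.52 in both PGCLC samples and 0.38 and 0.39 in the ESCs. The spike-in mean was 7.44 and 6.72 in knockout PGCLCs and 5.76 and 5.42 in knockout ESCs. The Gapdh gap was thus wider in PGCLCs of both genotypes, and leaving out single arrays does not remove such a difference. Control PGCLC sample 1 had the higher level for several genes of somatic tissues, and the mean level of 11 fibroblast markers was 3.97 in it, 3.29 in control PGCLC sample 2 and 3.09 and 3.13 in the ESCs. The part of these differences in the results was not tested. Calls are therefore given with and without these arrays. A call written here as kept passed the test in each of the 8 fits that left out 1 array.

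In all, 1522 of 18193 genes differed between control PGCLCs and control ESCs at an adjusted p under 0.05 (limma), which is 8.37% of the genes. Of these, 845 genes (4.64%) were higher and 677 genes (3.72%) were lower in the PGCLCs. Counts of called members in the lists below are to be read beside these shares. The difference exceeded 1 for 893 of them. The study's rule for arrays, a difference of means above 1.5, passed 351 genes upward (1.93%) and 284 downward (1.56%), together 3.49%, and 505 of these 635 genes were also past limma. Among the genes past limma, 302 of the increases started from an ESC mean under 5. Of the decreases, 239 ended at a PGCLC mean under 5. Signal there is close to background, and a fold change may be understated. Both sets include genes under 5 in both groups, such as 1700029J07Rik (difference 0.782) and 1110015O18Rik (−0.402). For such genes the calls are differences near background and do not show expression in either group. The count was 390 (245 higher, 145 lower) without control PGCLC sample 2, 653 (303 higher, 350 lower) without sample 1, 325 (181 higher, 144 lower) without control ESC sample 1 and 523 (310 higher, 213 lower) without sample 2. In bulk RNA fewer cells of a type and less RNA per cell cannot be told apart.

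**Figure D1:**
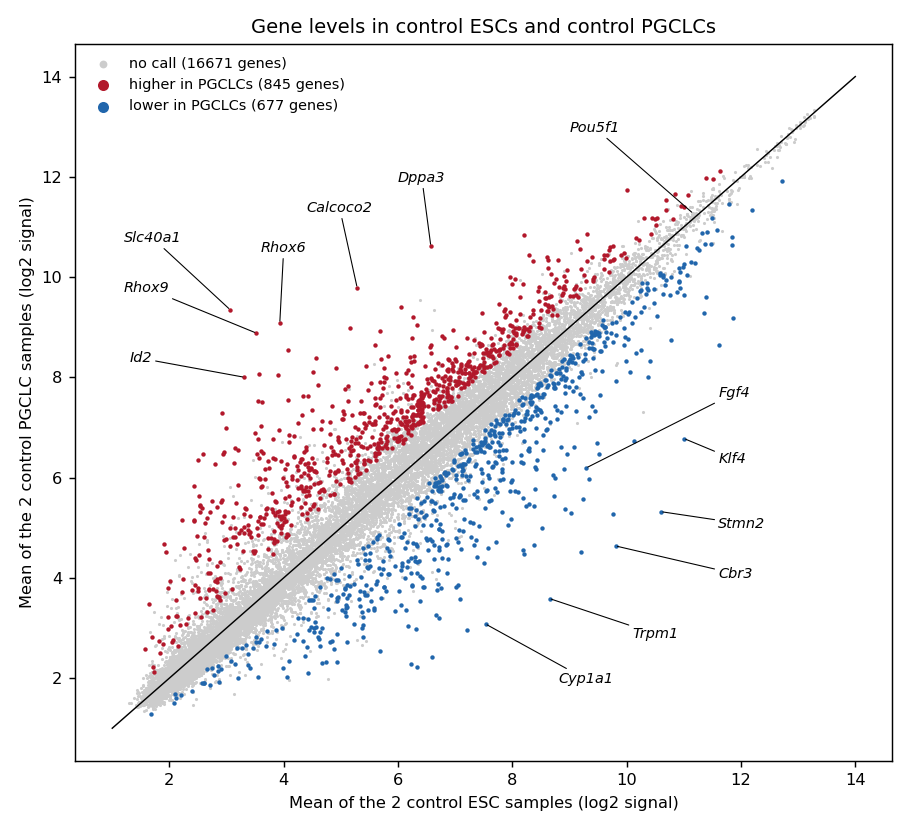
Each point is 1 of 18193 genes, with the mean log2 signal of the 2 control ESC samples on the x axis and that of the 2 control PGCLC samples on the y axis; red points are the 845 genes higher and blue points the 677 genes lower in PGCLCs by limma, grey points were not called, and the line marks equal means. Slc40a1, Rhox9 and Rhox6 lie far above the line, Stmn2, Cbr3 and Klf4 far below it, and Pou5f1 lies close to it.

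The sorted cells were checked against markers of the stages first. Of 9 measured PGCLC markers, 7 were higher than in ESCs past the test, against 4.64% of all genes. The 7 include Prdm1, whose reporter was used to sort the cells, so its rise is no independent check. The groups did not overlap for any of the 9, which held for 53.8% of all genes. Prdm1 (Blimp1), the transcriptional repressor whose reporter was sorted, was at 7.08 and 6.85 in ESCs and at 8.93 and 8.98 in PGCLCs, a difference of 1.99 (SE 0.34, adjusted p = 0.0148). Dppa3 (Stella), a maternal and germ cell factor that protects DNA methylation in the zygote, was at 5.27 and 7.88 in ESCs and at 10.37 and 10.87 in PGCLCs, a difference of 4.05 (SE 0.85, adjusted p = 0.03). The ESC samples of Dppa3 were far apart, and both PGCLC values lay above them. Dnd1, an RNA-binding protein needed for germ cell survival, rose by 2.12 from 5.85 and 6.10 to 7.98 and 8.20. The integrin gene Itgb3, used as a surface marker of PGCLCs, rose by 2.33 from 2.41 and 2.10 to 4.21 and 4.96 on this probe set, while the other probe set of the gene differed by −0.06. Ifitm3 (Fragilis) rose by 1.39, Prdm14 by 0.91 and the alkaline phosphatase gene Alpl by 0.87.

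Tfap2c and Kit had higher values without passing the test. Tfap2c was at 7.88 and 9.14 in ESCs and at 9.84 and 10.29 in PGCLCs, a difference of 1.55 (SE 0.42, adjusted p = 0.0648), and its 3 probe sets differed by 1.55 to 1.92. Kit, the SCF receptor, was at 7.94 and 8.07 against 8.56 and 9.05, a difference of 0.80 (SE 0.20, adjusted p = 0.0533). The ESC samples were spread for Tfap2c and close together for Kit, and no PGCLC value reached down to an ESC value for either gene. Nanos3 was not analysed here. The calls of Dnd1, Itgb3 and Ifitm3 were kept. Those of Prdm1 and Alpl were lost when any control array was left out (adjusted p up to 0.0889 and 0.175), that of Prdm14 also without either knockout ESC array (up to 0.205), and that of Dppa3 without control ESC sample 1 or any of the 4 PGCLC arrays of both genotypes (up to 0.157, difference 3.80 without control PGCLC sample 2).

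The core pluripotency factors Pou5f1 and Sox2 did not pass the test, whereas part of the naive ESC network fell. Pou5f1 (Oct4) was at 11.18 and 11.14 in ESCs and at 11.26 and 11.28 in PGCLCs, a difference of 0.11 (SE 0.09, adjusted p = 0.529). Sox2 was at 11.19 and 11.11 against 11.13 and 11.26, a difference of 0.04 (SE 0.11, adjusted p = 0.863). Nanog differed by −0.55, from 10.57 and 10.60 to 10.09 and 9.99 (SE 0.11, adjusted p = 0.0235), a call that was lost without any 1 of the control arrays. Klf4, a reprogramming factor of naive cells, had the largest decrease of the 10 markers, at 11.03 and 10.98 in ESCs and at 6.91 and 6.65 in PGCLCs, a decrease by 4.22 (SE 0.28, adjusted p = 0.000658) that both of its probe sets showed and that was kept. Tbx3 fell by 1.55 and Tfcp2l1 by 1.06, and their calls were lost without either control ESC array (adjusted p up to 0.111 and 0.199), that of Tfcp2l1 also without either control PGCLC array. The 5 probe sets of Tbx3 differed by −1.77 to 0.21. Esrrb differed by −0.04, Klf2 by 0.28, Nr0b1 by −0.55 and Zfp42 (Rex1) by −0.69, all without passing. Thus of the 10 ESC markers 4 were lower, against 3.72% of all genes, and 0 were higher.

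Of the 6 epiblast-like cell markers, Fgf5 passed the test. Fgf5 was low in all samples, at 2.22 and 1.78 in ESCs and at 3.63 and 4.26 in PGCLCs, a difference of 1.94 (SE 0.40, adjusted p = 0.0294) that was lost without any 1 of the control arrays. Otx2 was at 5.04 and 5.48 against 6.20 and 6.62, a difference of 1.15 that did not pass (adjusted p = 0.239). Dnmt3b, the de novo DNA methyltransferase that rises in the epiblast, did not pass, at 9.85 and 8.87 against 8.28 and 7.88, a difference of −1.28 (SE 0.32, adjusted p = 0.0506). Pou3f1, Wnt8a and Sox3 differed by −0.48, 0.21 and 0.20.

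Markers of other cells were described for 5 lists. Past the test were 1 of 18 endoderm markers upward (Amn, 1.70) and 1 downward (Lama1, −2.81), 0 of 13 trophoblast markers, 1 of 11 fibroblast markers (Tagln, 1.68), 2 of 15 neural markers downward (Stmn2 and Nefl) and 0 of 14 endothelial and blood markers. The calls of Stmn2, Nefl and Lama1 were kept, and those of Amn and Tagln were lost without control PGCLC sample 1 or 2 and without control ESC sample 1 (adjusted p up to 0.109 and 0.11). The trophoblast marker Cdx2 differed by 1.26 (adjusted p = 0.0719), and Gata3 was at 2.18 and 2.17 in ESCs, at 5.07 in control PGCLC sample 1 and at 3.0 in sample 2. The mean level of the trophoblast markers was 3.56 and 3.69 in ESCs and 3.90 and 3.67 in PGCLCs, and that of the endothelial and blood markers 3.26 and 3.27 against 3.40 and 3.17. The endoderm markers were at 3.99 and 4.01 against 4.49 and 3.92, and the neural markers at 4.60 and 4.52 against 3.99 and 3.62. In all 5 lists the mean level was higher in control PGCLC sample 1 than in sample 2.

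**Figure D2:**
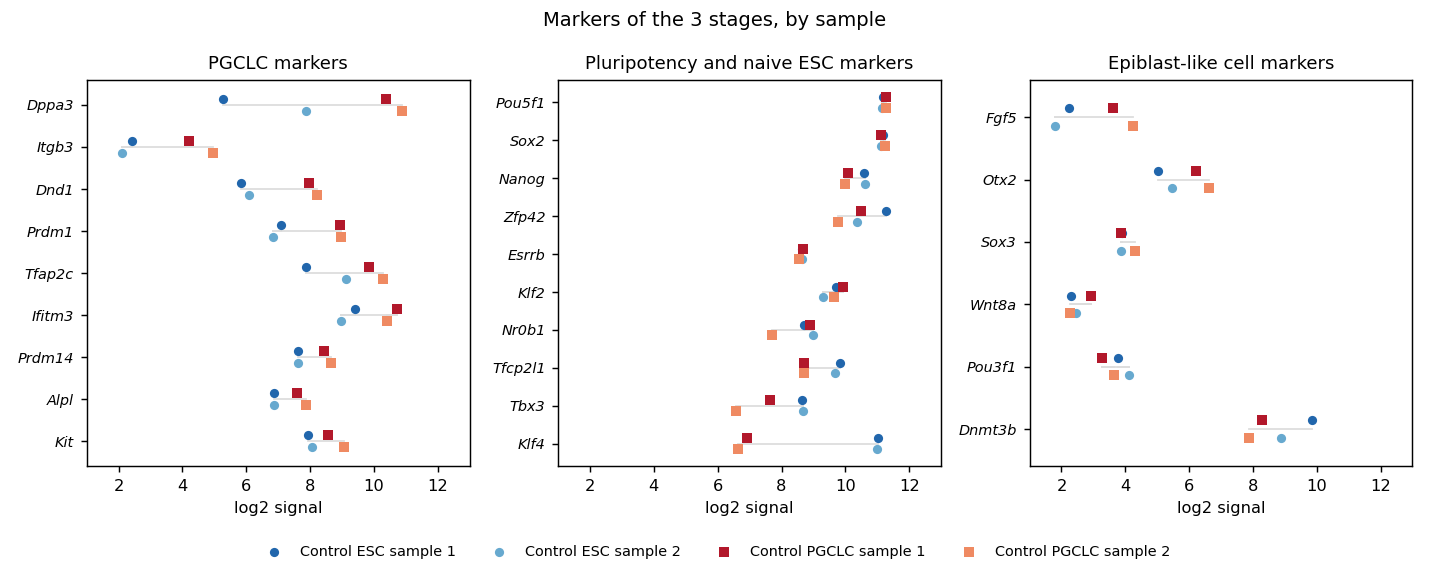
Log2 signal (x axis) of 9 PGCLC markers, 10 pluripotency and naive ESC markers and 6 epiblast-like cell markers in the 4 control samples, blue circles for ESCs and red squares for PGCLCs. All PGCLC markers lie to the right of their ESC values, the Pou5f1 and Sox2 values of both groups lie close together, and Klf4 lies near 11 in ESCs and below 7 in PGCLCs.

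The largest increases included genes of iron export, reproductive homeobox genes and signalling regulators. Slc40a1, which encodes the iron exporter ferroportin, was at 2.83 and 3.29 in ESCs and at 9.37 and 9.33 in PGCLCs, an increase of 6.29 (SE 0.56, adjusted p = 0.00156) and the largest of all genes called. Rhox9 was at 3.64 and 3.40 against 8.78 and 8.99, an increase of 5.36 (SE 0.20, adjusted p = 9.82e-05). Rhox6 was at 3.79 and 4.07 against 9.08 and 9.09, an increase of 5.15 (SE 0.28, adjusted p = 0.000323). Both are homeobox genes of a cluster on the X chromosome that is expressed in reproductive tissues. Of the other measured members, Rhox5 was at 8.15 and 9.66 against 10.23 and 10.03 (difference 1.22, adjusted p = 0.125), and Rhox13, named after its value was seen, differed by 0.11.

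Large increases were also found for an autophagy receptor, lipid enzymes and secreted or nuclear regulators. Calcoco2, an autophagy receptor gene, rose by 4.50, from 5.20 and 5.37 to 9.71 and 9.87. BC048679 rose by 4.50, the phospholipase C gene Plcd1 by 4.47 and the choline dehydrogenase gene Chdh by 4.37. The glycerol-3-phosphate acyltransferase gene Gpat3 rose by 3.88, Lrrn4 by 4.0, AU015836 by 3.89 and the calcium-binding protein gene S100a6 by 3.98. Mbp rose by 4.15 on the probe set used, while its 8 probe sets differed by −0.19 to 4.15. Id2, an inhibitor of bHLH transcription factors and a target of BMP signals, was at 3.21 and 3.41 against 8.74 and 7.26 (difference 4.69, adjusted p = 0.00286), and its 3 probe sets differed by 0.08 to 4.69. Dkk1, a secreted WNT antagonist, was at 2.73 and 2.26 against 7.51 and 5.17 (difference 3.85, adjusted p = 0.0226). Of these 15 increases the calls of Dppa3, S100a6 and Dkk1 were not kept. S100a6 was at 2.11 and 4.98 in ESCs, and its adjusted p reached 0.124 without control PGCLC sample 2. The call of Dkk1 was lost without control ESC sample 2 and without control PGCLC sample 1, which held its higher PGCLC value. It passed without control PGCLC sample 2.

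The largest decreases held Klf4 and genes of neurons, enzymes and transport. Stmn2, a stathmin of neurons that destabilizes microtubules, fell by 5.28 (SE 0.29, adjusted p = 0.000323), from 10.56 and 10.65 to 5.84 and 4.80. Cbr3, a carbonyl reductase gene, fell by 5.17, from 10.13 and 9.49 to 5.01 and 4.26. Trpm1, an ion channel gene, fell by 5.06, from 9.7 and 7.6 to 3.55 and 3.62, and its 4 probe sets differed by −5.06 to −0.09. Laptm5, which encodes a lysosomal membrane protein, fell by 4.68 on the probe set used, and its 5 probe sets ranged from −4.68 to −0.24. The cytochrome P450 gene Cyp1a1, a target of the aryl hydrocarbon receptor, fell by 4.45, from 8.36 and 6.70 to 3.03 and 3.13.

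The other genes among the 15 largest decreases were 1700097N02Rik (−4.49), the phospholipase gene Pla2g1b (−4.24), Accsl (−4.18), Ccdc141 (−4.11), Gm21283 (−3.94), the guanine nucleotide exchange factor gene Mcf2 (−3.74), Aff1, whose product belongs to the super elongation complex (−3.73), the annexin gene Anxa4 (−3.72) and the endocytic receptor gene Ly75 (−3.65). For Pla2g1b, Ccdc141 and Aff1 another probe set of the gene differed by −0.04, −0.30 and −0.45. The groups did not overlap for any of these 30 genes, which was part of how they were chosen and held for 53.8% of all genes. Among the decreases 3 calls were not kept: 1700097N02Rik (adjusted p up to 0.0995), Accsl (up to 0.0644) and Mcf2 (0.0617 without control ESC sample 1). The first 2 were lost also without control PGCLC sample 2. In all, 24 of the 30 were kept in every fit, and 26 passed when control PGCLC sample 2 was left out.

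**Figure D3:**
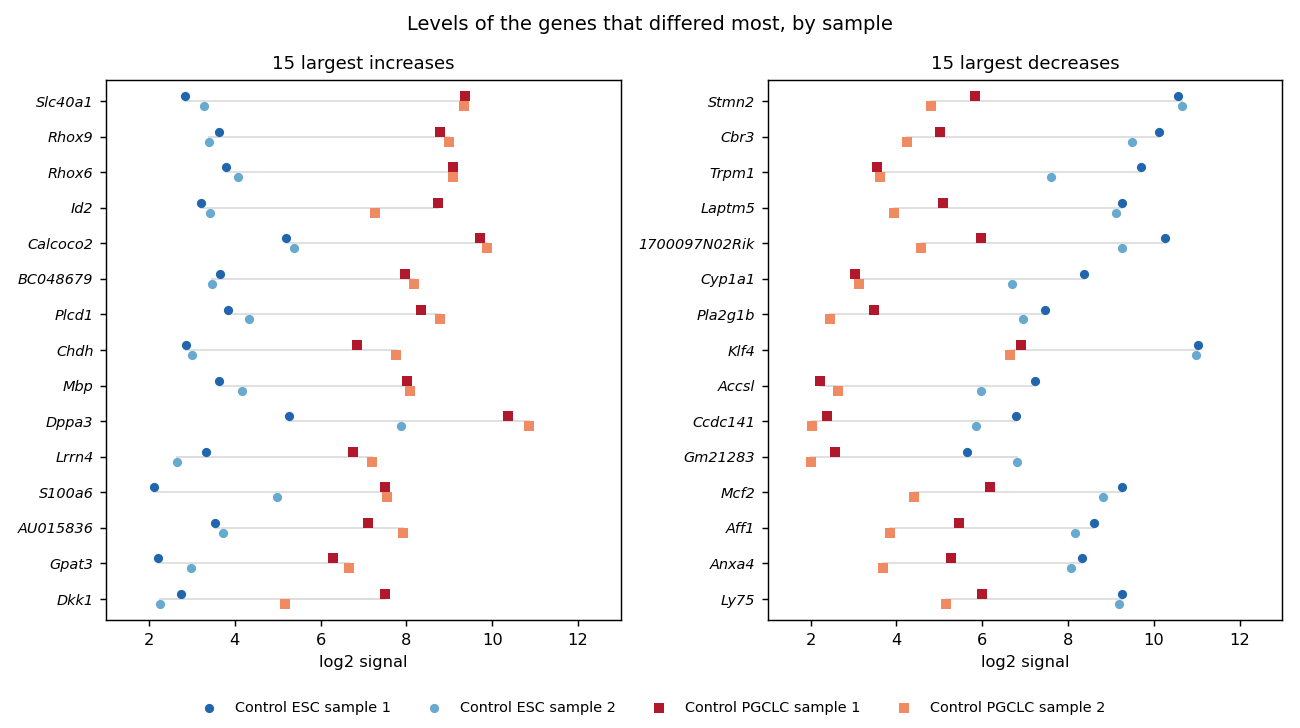
Log2 signal (x axis) of the 15 largest increases and the 15 largest decreases past limma in each control sample, blue circles for ESCs and red squares for PGCLCs. The spread between PGCLC samples is widest for Dkk1 (7.51 and 5.17), and that between ESC samples for S100a6 and Dppa3.

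The beginning of some of these genes is shown because TFAP2C, an AP-2 factor that PGCLCs express, binds the pattern GCCNNNGGC, which reads the same on both strands. RefSeq promoters of 300 bases, from 250 before to 50 after the start of the gene (GRCm38.p6), were matched for 14368 of 18193 genes. The pattern was in 22.4% of them, in 29.7% of the 686 promoters of higher genes and in 23% of the 548 promoters of lower genes. The promoters of higher genes were also richer in CpG, with a median observed over expected ratio of 0.75, against 0.71 for lower genes and 0.67 for all. By the fold rule the pattern was in 27.7% of 267 higher and 24.8% of 218 lower promoters, and the CpG ratios were 0.71 and 0.57. Over all 32851 promoters in the table, which include genes not on the array and other starts of a gene, it was in 16.6%. Of the 15 largest increases 8 had a promoter in the table and 2 of these held the pattern, against 4 of 14 for the decreases. No binding was measured here, and a match in these letters is a description only. The pattern is in capitals in the promoters below, written 5′ to 3′ on the strand of the gene, for an increase (Chdh, centred 198 bases before the start), a decrease (Klf4, 5 bases before the start) and a BMP target with 2 matches that rose by 2.30 (Smad6, the first 219 bases before the start).
Chdh (chr14:30008750-30009049, plus strand): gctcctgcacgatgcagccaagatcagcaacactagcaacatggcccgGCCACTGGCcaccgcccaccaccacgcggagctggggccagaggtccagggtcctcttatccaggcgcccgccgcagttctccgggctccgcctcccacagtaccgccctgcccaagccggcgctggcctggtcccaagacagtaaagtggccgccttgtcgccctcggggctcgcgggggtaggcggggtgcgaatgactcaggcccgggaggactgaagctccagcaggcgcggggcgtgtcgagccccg
Klf4 (chr4:55532426-55532725, minus strand): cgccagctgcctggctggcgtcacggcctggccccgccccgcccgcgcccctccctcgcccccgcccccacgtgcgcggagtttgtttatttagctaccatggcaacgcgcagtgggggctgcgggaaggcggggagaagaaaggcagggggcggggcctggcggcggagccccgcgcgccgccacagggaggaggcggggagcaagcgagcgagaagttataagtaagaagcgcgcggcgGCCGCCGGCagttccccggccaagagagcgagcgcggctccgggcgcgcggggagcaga
Smad6 (chr9:64022010-64022309, minus strand): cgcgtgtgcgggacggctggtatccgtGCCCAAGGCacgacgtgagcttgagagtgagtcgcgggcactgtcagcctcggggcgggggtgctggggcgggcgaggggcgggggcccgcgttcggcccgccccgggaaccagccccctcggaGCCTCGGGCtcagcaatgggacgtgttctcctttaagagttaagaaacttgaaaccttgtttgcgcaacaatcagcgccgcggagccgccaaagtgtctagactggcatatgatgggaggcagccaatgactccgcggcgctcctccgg

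Shorter windows around the pattern show how its 3 middle bases and its surroundings vary in other genes described here, Lrrn4, which rose, Kit, which did not pass, and the decreases Trpm1, Anxa4 and Hk2. No GCCNNNGGC was found in these 300 bases of Id2, Plcd1, Dkk1, Prdm1, Cbr3 or Fgf4. By ChIP in PGCLCs the study found TFAP2C enriched at genomic regions of Fgf4, Klf4 and Kit alike. Those regions were not compared with these promoters.
Lrrn4 (chr2:132881009-132881047, minus strand): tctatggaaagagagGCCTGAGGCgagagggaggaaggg
Kit (chr5:75574838-75574876, plus strand): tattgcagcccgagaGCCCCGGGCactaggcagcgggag
Trpm1 (chr7:64153618-64153656, plus strand): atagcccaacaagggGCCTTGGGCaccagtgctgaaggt
Anxa4 (chr6:86793677-86793715, minus strand): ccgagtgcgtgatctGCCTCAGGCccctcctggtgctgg
Hk2 (chr6:82774623-82774661, minus strand): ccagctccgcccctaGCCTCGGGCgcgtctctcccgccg

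Beyond the markers, 3 further early germ cell genes rose. Of 23 measured genes of PGC specification and early germ cells, 10 were higher and 1 was lower, with a median difference of 0.80 against −0.03 over all genes. Besides the markers these were Sox15, a transcription factor gene (5.53 and 6.22 against 7.29 and 7.55, difference 1.54), Ifitm1 (0.85) and Cxcr4, the receptor that guides migrating germ cells (2.92 and 2.85 against 4.36 and 4.28, difference 1.43). The tetraspanin gene Cd9, named after its value was seen, was the lower member (−1.12). The calls of Ifitm1 and Cxcr4 were kept, and that of Sox15 was lost without control ESC sample 1 or either control PGCLC array (adjusted p up to 0.112). Leaving out single arrays gave 5 to 11 higher members, 5 without control PGCLC sample 2. Of 42 later germ cell, meiosis and piRNA genes, 2 were higher, near the 4.64% of all genes, and the median was −0.10. They were the Tudor domain genes Tdrd5 (difference 2.00, adjusted p = 0.0117) and Tdrd7 (1.38, adjusted p = 0.0489). Both Tudor genes encode components of germ granules. Dazl, a translational regulator of the licensed germ cell, was at 6.08 and 7.05 against 6.93 and 6.88 (0.34, adjusted p = 0.754), and Dmrt1 at 6.50 and 8.01 against 7.88 and 8.08 (0.72, adjusted p = 0.589). The call of Tdrd7 was lost in every fit without 1 array, and that of Tdrd5 without either control ESC array (adjusted p up to 0.0843).

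The pluripotency network changed by member and not as a block. Of 24 naive pluripotency genes, 9 were lower and 3 higher, with a median of −0.48. The decreases included Fgf4, the growth factor made by the inner cell mass, from 9.21 and 9.37 to 6.39 and 6.0 (difference −3.10, SE 0.23, adjusted p = 0.000935), the adhesion molecule gene Jam2 (−2.48) and the homeobox genes Crxos (−2.79) and Gbx2 (−2.24). The 3 increases in this list, Dppa3, Sox15 and Prdm14, are germ cell genes as well. The calls of Klf4, Fgf4 and Jam2 were kept, and those of Crxos and Gbx2 were lost without control PGCLC sample 2 (adjusted p = 0.171 and 0.0688) and in 2 or more other fits, control ESC sample 1 and control PGCLC sample 1 among them. Without control PGCLC sample 2 the counts were 4 lower and 0 higher.

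Of 15 core pluripotency genes, 3 were higher and 3 lower. The higher ones were Utf1 (1.13) and the paired genes Dppa2 (1.02) and Dppa4 (0.86), whose products bind chromatin in pluripotent cells. The lower ones were Nanog, the Nodal co-receptor gene Tdgf1 (−1.18, from 10.82 and 10.95 to 9.49 and 9.93) and the Ras-like gene Eras (−1.45). The call of Tdgf1 was kept, and those of Utf1, Dppa2, Dppa4 and Eras were lost without control ESC sample 1 and in further fits (adjusted p up to 0.0953, 0.0998, 0.0597 and 0.24). The 3 probe sets of Utf1 differed by 0.00 to 1.13. Without control PGCLC sample 2 or without sample 1, 1 gene was higher and 1 lower. Of 20 primed epiblast genes, 2 were higher (Fgf5 and Dppa4) and 1 was lower, the zinc finger gene Zic5 (8.23 and 8.15 against 6.35 and 4.81, difference −2.60, adjusted p = 0.0123), whose call was lost without either control ESC array. Of 7 two-cell-stage genes, which mark a rare state in ESC cultures, 0 passed, and Tdpoz1 and Zfp352 differed by −0.19 and −0.16.

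More FGF and ERK genes passed the test upward than downward. ESCs were grown with a MEK inhibitor, which blocks ERK, and the PGCLC medium held EGF and SCF, whose receptors signal to ERK. Medium and cell type changed together between the groups, and the part of the medium was not tested. Of 25 feedback and target genes, 9 were higher and 2 lower, against 4.64% and 3.72% of all genes, with a median of 0.53. Dusp4, a phosphatase that acts on ERK and is induced by it, was at 4.03 and 5.01 in ESCs and at 8.29 and 7.92 in PGCLCs, an increase of 3.59 (SE 0.39, adjusted p = 0.00351). Phlda1 was at 3.54 and 3.75 against 7.20 and 5.76 (difference 2.84, adjusted p = 0.0108). The receptor gene Fgfr2 was at 4.54 and 3.61 against 7.39 and 7.71 (3.48, adjusted p = 0.00153). Its 3 probe sets differed by −0.08 to 3.48, and without the probe sets whose names mark shared sequence the value was −0.08. The other members called upward, named after their values were seen, were Fgfr1 (1.92), Dusp5 (1.71), Dusp6 (1.14), Spred2 (0.75), Ier3 and Fgf5. The ligand Fgf4 and the cyclin gene Ccnd1 were the members that fell. The calls of Dusp4, Fgfr2 and Fgf4 were kept, and that of Phlda1 was lost without either control ESC array (adjusted p up to 0.0784). The list had 3 to 10 higher members with single arrays left out, 4 without control PGCLC sample 2.

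The BMP genes that passed were all higher, and they were targets and intracellular regulators. Of 26 measured genes, 5 were higher, against 4.64% of all genes, and 0 lower, and the median was 0.08. In 10 of them the difference exceeded 1.5, against 1.93% of all genes. Smad6, an inhibitor that BMP signals induce, was at 4.83 and 4.79 in ESCs and at 7.08 and 7.13 in PGCLCs (2.30, SE 0.28, adjusted p = 0.00485). The homeobox genes Msx2 and Msx1 were at 3.63 and 3.47 against 7.18 and 6.35 (3.21, adjusted p = 0.0135) and at 3.49 and 3.64 against 7.03 and 5.76 (2.83, adjusted p = 0.0301). Gata2 rose by 1.74, from 5.56 and 5.80 to 7.21 and 7.63. The remaining call was that of Id2. Id1 and Id3 differed by 1.70 and 2.35 without passing (adjusted p = 0.0729 and 0.0874). Id1, Id3 and the following ligands and receptors were named after their values were seen. The ligands Bmp4, Bmp7 and Bmp8b differed by −0.67, 0.04 and 0.05, and the receptors Bmpr1a and Bmpr1b by −0.17 and −0.07. For Msx1, Msx2 and Id2 another probe set of the gene differed by 0.31, 0.29 and 0.08. The calls of Smad6, Gata2 and Id2 were kept, and those of Msx1 and Msx2 were lost when control ESC sample 1 (adjusted p = 0.143 and 0.0786), control ESC sample 2 or control PGCLC sample 1 was left out, that of Msx1 also without control PGCLC sample 2 (0.0582). Both Msx genes and Id2 were highest in control PGCLC sample 1, where the fibroblast markers were also highest. Smad6 and Gata2 were not higher in that sample than in control PGCLC sample 2. Any link to the fibroblast markers was not tested.

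WNT targets moved both ways, with 3 of 25 higher, 3 lower and a median of 0.02. Over all genes 4.64% were higher and 3.72% lower. The ESC medium held a GSK3 inhibitor, which stabilizes β-catenin. The part of the medium in these differences was not tested either. The direct targets Sp5 (7.34 and 6.15 against 3.79 and 3.79, difference −2.95) and Cdx1 (−1.65) fell, as did the secreted antagonist gene Sfrp1 (7.47 and 7.24 against 4.58 and 4.92, difference −2.60, adjusted p = 0.00726). The antagonist gene Dkk1, the cyclin gene Ccnd2 (2.96) and Sfrp2 (1.59, from 3.30 and 3.80 to 5.25 and 5.02) rose. Axin2, a feedback target named after its value was seen, differed by −1.72 without passing (adjusted p = 0.0898). The call of Sfrp2 was kept. That of Sfrp1 was lost without control ESC sample 1 (adjusted p = 0.0621), and that of Ccnd2 without either control ESC array (up to 0.0606), and those of Sp5 and Cdx1 without any 1 of the control arrays or of the knockout PGCLC arrays (up to 0.211 and 0.181). The probe sets of Ccnd2 differed by 0.42 to 3.06 and those of Sfrp1 by −3.87 to −0.99.

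In 6 further signalling lists, 0 to 5 members passed the test. In the Nodal pathway, which patterns the epiblast, the inhibitor gene Lefty1 (8.25 and 7.48 against 9.32 and 9.40, difference 1.5) and the receptor gene Acvr2b (1.40) rose, Tdgf1 fell, and 13 of 16 members did not pass. In the Notch pathway the target gene Hey1 rose by 3.25 (SE 0.22, adjusted p = 0.000751), from 4.52 and 4.68 to 7.63 and 8.07, while the target gene Hes1 fell by 1.46 and the ligand gene Jag1 by 2.02. Notch2 (1.62) and Dll3 (1.33) rose, and 12 of 17 members did not pass. Of 10 Hedgehog genes the transcription factor gene Gli2 fell (9.06 and 8.77 against 6.4 and 4.33, difference −3.55, adjusted p = 0.0163). Of 13 JAK/STAT3 genes Junb (1.43) and the ligand gene Lif (1.1) rose and the feedback inhibitor gene Socs3 fell by 0.91. Of 14 receptors and ligands of germ cell guidance the neuregulin receptor gene Erbb3 (6.65 and 6.9 against 8.8 and 8.85, difference 2.05, adjusted p = 0.000959), Cxcr4 and the endothelin receptor gene Ednrb (1.15) rose. None of 15 retinoic acid genes passed, with Crabp2 at 1.35 and Stra8 at 1.15. The other probe set of Erbb3 differed by −0.36. The calls of Hey1, Junb, Erbb3, Cxcr4 and Tdgf1 were kept. The other calls of these pathways were lost without at least 1 control array. Without control PGCLC sample 2 those lost were Lefty1, Acvr2b, Lif, Socs3, Notch2, Hes1, Jag1, Dll3 and Ednrb.

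**Figure D4:**
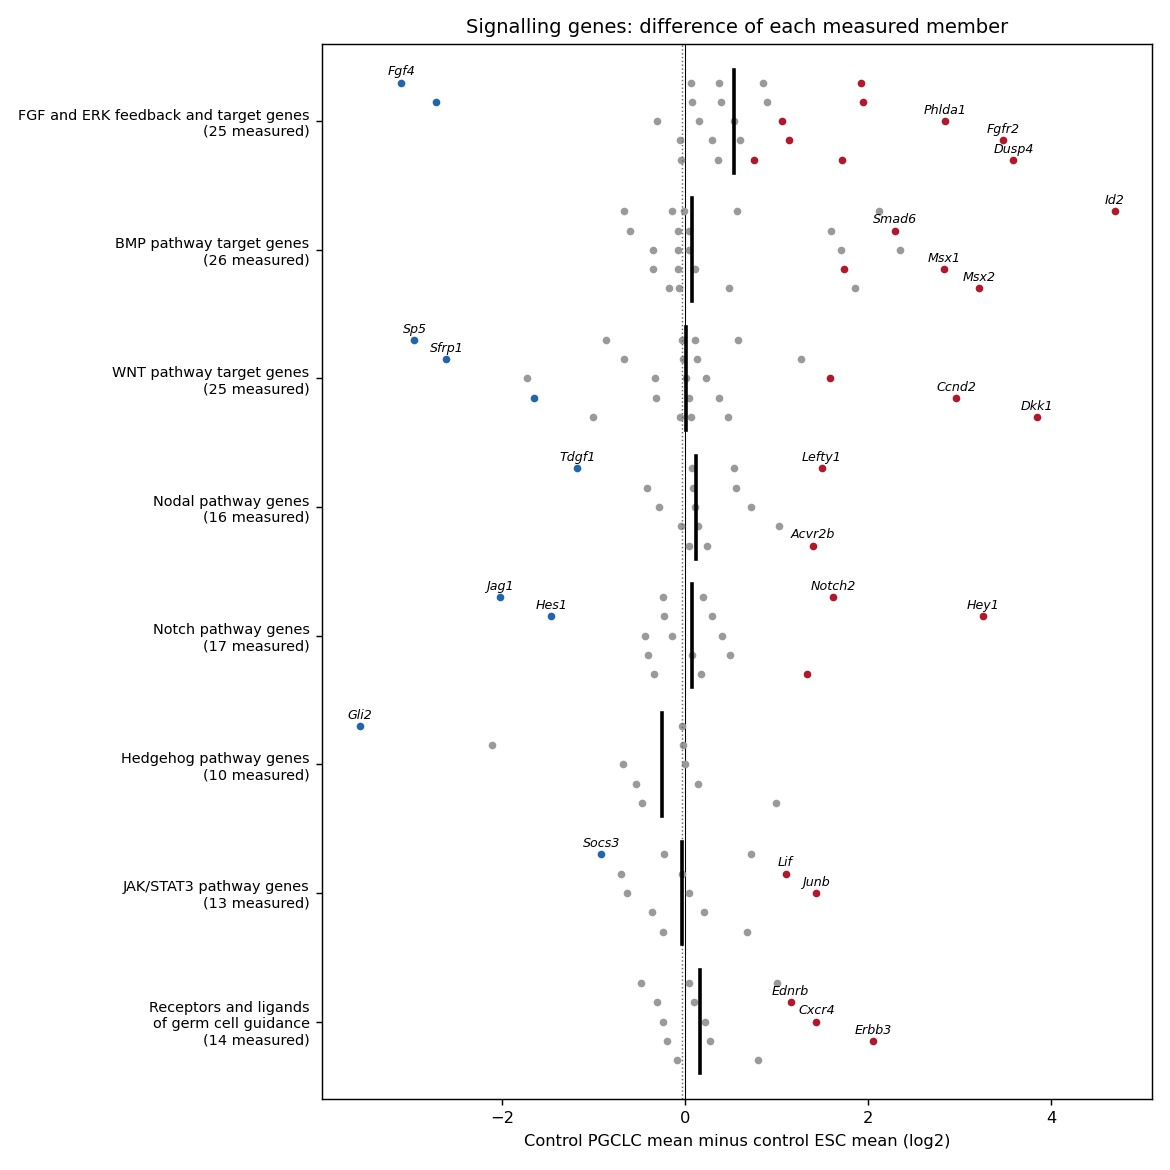
Difference of means, control PGCLC minus control ESC (log2, x axis), for each measured member of 8 signalling lists, with red and blue points for members higher and lower past limma, grey points for others, a black bar at the median of the list and a dotted line at the median of all genes (−0.03). The median of the FGF and ERK list lies at 0.53, and the 5 BMP targets called lie between 1.74 and 4.69.

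Of 24 early mesoderm genes, 5 were higher, against 4.64% of all genes, and 1 lower, with a median of 0.18. Isl1 was at 2.67 and 2.84 in ESCs, 6.68 in control PGCLC sample 1 and 4.38 in sample 2, and Tbx4 was at 2.12 and 1.76 against 4.35 and 4.68 (differences 2.78 and 2.58, adjusted p = 0.0418 and 0.0163). Foxc2 (0.92), Lhx1 (0.74) and Tbx6 (0.49) were higher at levels below 4 in all 4 samples, and all 3 calls were lost without either control ESC array. The list had 0 to 3 higher members with single arrays left out, 1 without control PGCLC sample 1 and 3 without sample 2. The lower member was Cdx1. Mixl1, Mesp1 and Eomes, which mark the primitive streak and were named after their values were seen, differed by 0.12, −0.09 and −0.21. Of 33 Hox genes, Hoxd9 (1.60) and Hoxd8 (1.62) were higher and Hoxc13 (−1.55) was lower, 3 calls against 8.37% of all genes. The call of Hoxc13 was kept. That of Isl1 was lost in 7 of 8 fits, kept in the fit without control PGCLC sample 2 (difference 3.93), and Tbx4, Hoxd8 and Hoxd9 were lost without either control ESC array or control PGCLC sample 1. Another probe set of Tbx4 differed by −0.21 and of Hoxd8 by 0.16. Sox13, a SoxD gene, rose by 0.93, and of the 5 AP-2 family genes none passed, with Tfap2d at −0.26 beside Tfap2c.

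Among genes of DNA methylation the maintenance factor Uhrf1 had the largest change. Uhrf1, which recruits Dnmt1 to newly replicated DNA, was at 10.20 and 10.12 in ESCs and at 8.69 and 8.29 in PGCLCs, a decrease by 1.67 (SE 0.18, adjusted p = 0.00356). Both of its probe sets fell, by 1.67 and 1.83, and the call was kept. Named after their values were seen, Dnmt1 differed by 0.36 (adjusted p = 0.064), Dnmt3a by −0.26 and Tet1 by −0.04. Dnmt3l, a cofactor of de novo methylation, differed by −0.55 (5.99 and 5.64 against 6.51 and 4.01). The methyl-CpG-binding genes Mbd3 (1.2, kept) and Mbd1 (0.75) and the gene Uhrf2 (0.91) rose, so 3 of 17 were higher and 1 lower. Of 16 base excision repair genes, the uracil glycosylase gene Ung rose by 1.15 (8.76 and 8.70 against 9.65 and 10.12, adjusted p = 0.0167), a call lost without control PGCLC sample 2 or either control ESC array. Of 33 histone methylation and Polycomb genes, the PRC1 gene Pcgf5 rose by 2.06 (6.33 and 6.83 against 8.48 and 8.81), and Kdm6b (−0.81), Eed (−0.64) and Suv39h2 (−0.57) fell. Pcgf5 was lost without control PGCLC sample 2 (adjusted p = 0.0679) and without control ESC sample 1. Mbd1 and Uhrf2 were lost without either control PGCLC array, and Kdm6b, Eed and Suv39h2 without control PGCLC sample 2. Of 33 genes in that list 0 passed in the fit without control PGCLC sample 2.

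Of 35 imprinted genes, 5 passed the test, all upward, against 4.64% of all genes. The difference was above 1.5 on the log2 scale in 7 of the 35 and below −1.5 in 4. Over all genes these shares were 1.93% and 1.56%. Igf2, the fetal growth factor, was at 4.65 and 4.49 in ESCs, 9.33 in control PGCLC sample 1 and 7.43 in sample 2 (difference 3.81, adjusted p = 0.0122). Peg3 was at 7.50 and 8.90 against 10.64 and 11.06 (2.65), Peg12 at 2.29 and 2.58 against 4.93 and 5.34 (2.70, adjusted p = 0.00149), and the CDK inhibitor gene Cdkn1c at 4.05 and 4.30 against 7.43 and 6.25 (2.66). Igf2r, the receptor that degrades Igf2, rose by 1.06. Expression from either parental allele is not resolved by these arrays. The call of Peg12 was kept. Igf2 was lost without either control ESC array (adjusted p up to 0.0756), Igf2r without control ESC sample 1 (0.0756) or control PGCLC sample 1, and Cdkn1c and Peg3 without control PGCLC sample 2 (0.0681 and 0.165) and in further fits. For Igf2 and Peg3 another probe set differed by −0.11 and −0.21.

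Of 26 G1 genes, 3 were higher and 5 lower, against 4.64% and 3.72% of all genes. Ccnd1 was at 9.37 and 8.43 in ESCs and at 7.0 and 5.36 in PGCLCs (−2.72, adjusted p = 0.0234), and Ccnd2 was at 3.81 and 3.82 against 7.52 and 6.03 (2.96, adjusted p = 0.00785), so these 2 cyclin genes moved in opposite directions. The inhibitor genes Cdkn1a (p21) and Cdkn2a fell by 1.43 and 1.64, and Cdk6 differed by −1.32 (adjusted p = 0.143). The other members called were Cdkn1c (2.66), Ccnd3 (0.91), Rbl1 (−0.93) and Cdk2 (−0.70), of which Ccnd3 and Cdk2 were named after their values were seen, and all 4 calls were lost without either control ESC array. Of 27 G2 and M phase genes, Nek2 (0.82) passed, and 21 of the 27 lay above 0, with a median of 0.12. Of 36 replication genes, Mcm7 (0.58) rose, and Gins2 (−0.94), Pola1 (−0.92) and the thymidine kinase gene Tk1 (−0.64) fell, with a median of −0.01. Of 24 p53 targets, Perp (2.22) and Plk3 (1.08) rose, and Cdkn1a and Sesn2 (−1.23) fell. The call of Mcm7 was kept. Ccnd1 and Cdkn1a were lost without control PGCLC sample 2 (adjusted p = 0.087 and 0.0707; differences −1.90 and −1.0) or either control ESC array, Cdkn2a without either control PGCLC array and without control ESC sample 2, and Ccnd2 without either control ESC array. Nek2, Gins2, Pola1, Tk1, Perp, Plk3 and Sesn2 were lost without control PGCLC sample 2 (adjusted p up to 0.188).

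Where glycolysis and cholesterol synthesis genes passed the test, they were lower in PGCLCs. Of 22 measured glycolysis genes, 8 were lower, against 3.72% of all genes, and 0 higher, and the median was −0.68. Hexokinase 2 (Hk2), which catalyses the entry step, was at 10.11 and 10.01 in ESCs and at 7.76 and 8.46 in PGCLCs (−1.95, SE 0.36, adjusted p = 0.0201). The aldolase genes Aldoc (7.73 and 8.26 against 5.98 and 5.93) and Aldoa (10.76 and 11.10 against 9.77 and 9.78) fell by 2.04 and 1.15. Pgk1 fell by 1.21, from 11.81 and 11.88 to 10.67 and 10.60, the lactate dehydrogenase gene Ldhb by 0.91 and Pgam1 by 0.83. The transporter genes Slc2a1 and Slc16a1 completed the 8, with Slc16a1 named after its value was seen. The other probe set of Aldoc differed by 0.15. Of members named after their values were seen, the pyruvate kinase gene Pkm differed by 0.10, Hk1 by 0.64 and the transporter gene Slc2a3 by −0.15, all without passing. Gapdh, Eno1 and Gpi1 were not analysed here.

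In the pentose phosphate and one-carbon pathways 4 of 18 genes were lower and 2 higher, with a median of −0.32. The lower ones were the serine synthesis genes Psph (−1.65) and Phgdh (−1.27) and the pentose phosphate genes Pgd (10.71 and 10.35 against 9.29 and 9.15, difference −1.31) and Tkt (−0.86), and the higher ones Rpia (1.04) and Mtr (0.95). Of 20 cholesterol synthesis genes, 5 were lower, against 3.72% of all genes, and 0 higher, with a median of −0.74. Cyp51 was at 7.66 and 8.13 against 6.49 and 6.61 (−1.35), and Nsdhl (−1.24), Fdps (−1.02), the SREBP regulator gene Insig1 (−0.94) and Fdft1 (−0.74) also fell. The respiratory chain differed less, with Ndufv2, Sdhb and Ndufb5 lower by 0.59, 0.59 and 0.49 among 48 genes and a median of −0.09. Amino acid transporter genes moved both ways, with Slc6a15 (−3.14) and the cationic transporter Slc7a1 (9.53 and 9.35 against 7.08 and 7.59, −2.11) lower and Slc7a6 (1.49) and Slc1a3 (1.11) higher. Slc7a1 and Slc7a6 were lost without control ESC sample 1 (adjusted p = 0.0678 and 0.0513), Slc6a15 without control PGCLC sample 2 (0.087) and Slc1a3 without it and either control ESC array.

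The calls of the metabolic genes depended on the arrays. Without control PGCLC sample 2 no glycolysis and no cholesterol gene passed, with medians of −0.62 and −0.82. Without control PGCLC sample 1 the counts were 1 and 0. Over the 8 fits the glycolysis count ran from 0 to 10 and its median from −0.79 to −0.62, and the cholesterol count ran from 0 to 7 and its median from −0.88 to −0.46. The calls of Pgd and Tkt were kept, and those of the other pentose phosphate and one-carbon genes and of the respiratory genes named were lost without any 1 of the control arrays. Control PGCLC sample 2 had the lower mean level of the glycolysis list, 7.55 against 7.74 in sample 1 and 8.36 in both ESC samples, and sample 1 the lower mean level of the cholesterol list, 7.23 against 7.49, with 7.71 and 8.21 in the ESCs.

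**Figure D5:**
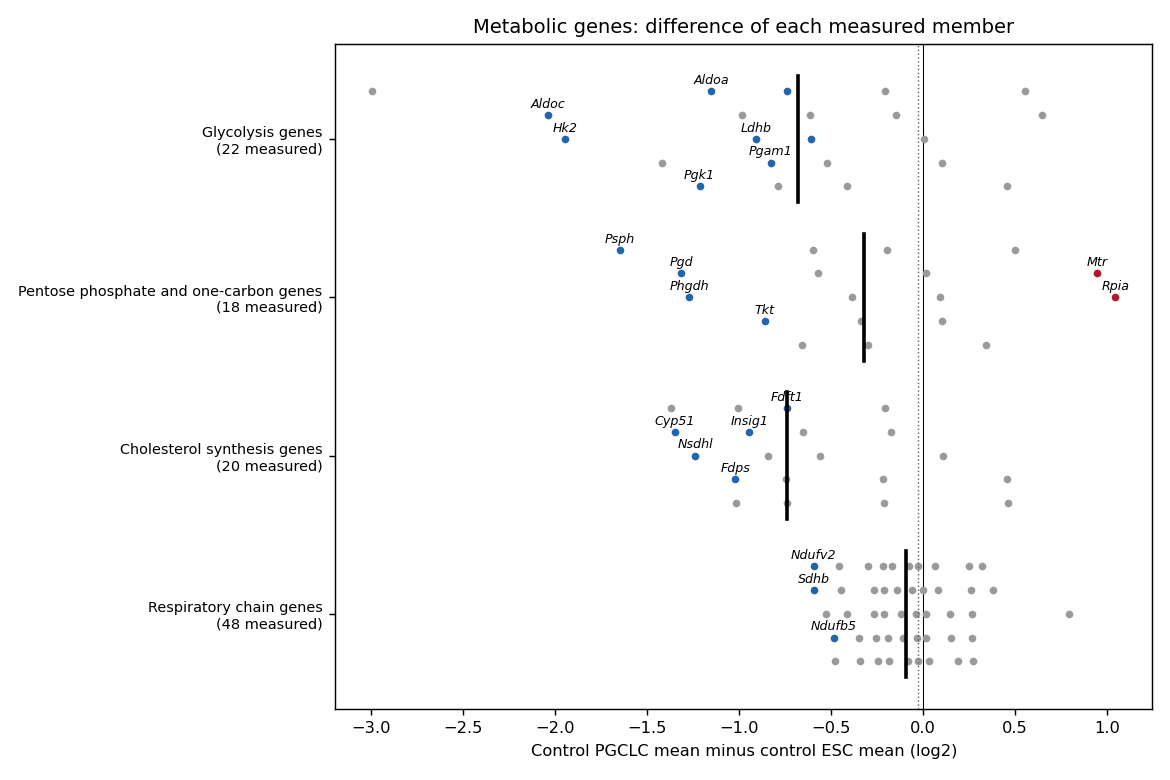
Difference of means, control PGCLC minus control ESC (log2, x axis), for each measured member of 4 metabolic lists, with blue and red points for members lower and higher past limma, grey points for others, a black bar at the median of the list and a dotted line at the median of all genes. The medians lie at −0.68 for glycolysis, −0.32 for the pentose phosphate and one-carbon list, −0.74 for cholesterol synthesis and −0.09 for the respiratory chain.

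Lysosome and stress genes held single large changes. Of 27 lysosome and autophagy genes, 6 were higher and 7 lower, against 4.64% and 3.72% of all genes. Calcoco2 and Laptm5 were the extremes. Mitf, a transcription factor of the lysosome and of pigment cells, fell by 3.20 (7.51 and 6.51 against 4.11 and 3.52), and the galactosidase gene Glb1 fell by 1.38, while the prosaposin gene Psap rose by 1.18 and the cathepsin gene Ctsa by 1.01. Of 23 ATF4 and unfolded protein stress genes, Nupr1 (−2.62) and Sesn2 fell and Dnajb9 (0.67) rose. Of 19 hypoxia genes, Ndrg1 (−2.17) and Slc2a1 fell, and the carbonic anhydrase gene Car12 rose by 2.63 (2.8 and 3.05 against 5.28 and 5.84). Of 20 immediate early and heat shock genes, which respond to dissociation and sorting, Junb, Ier3 (1.06) and Nr4a1 (0.69) were higher, with differences of 0.89 for Fos, 0.07 for Egr1 and −0.23 for Hspa1a, which were named after their values were seen. Of 23 MHC class I and interferon genes, 5 rose, H2-Bl (2.79), the peptide loading gene Tapbp (1.31), Ifitm3, Irf1 (1.15) and Ifitm1, and 18 did not pass. The calls of Laptm5, Calcoco2, Car12, Junb and the Ifitm genes were kept. Without control PGCLC sample 2 those of Mitf, Glb1, Psap, Nupr1, Sesn2, Dnajb9, Ndrg1, Slc2a1, Ier3, Nr4a1, H2-Bl, Tapbp and Irf1 were lost, and the lysosome counts were 2 higher and 2 lower. Ctsa was lost without control ESC sample 1 or control PGCLC sample 1. The probe sets of Car12 differed by 0.02 to 2.63 and those of Mitf by −3.20 to −0.51.

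Cadherins moved in opposite directions. E-cadherin (Cdh1) fell by 1.0, from 10.51 and 10.44 to 9.42 and 9.54 (SE 0.12, adjusted p = 0.00497), while P-cadherin (Cdh3) rose by 2.06, from 4.18 and 4.45 to 6.46 and 6.3, and the epithelial splicing factor gene Esrp1 rose by 2.94, from 5.87 and 6.66 to 8.95 and 9.45. The other 27 of 30 cadherin and epithelial genes did not pass, although the median was 0.52 and 10 exceeded a difference of 1.5. Over all genes 1.93% exceeded it upward. Of 28 integrin and matrix genes, Itgb3, Itga1 (2.21), Itgb5 (2.05) and Cd24a (1.95) rose. The basement membrane genes Lama1 (7.08 and 6.31 against 4.24 and 3.53, −2.81) and Nid1 (8.66 and 8.19 against 7.04 and 5.65, −2.08) fell, as did Cd9 (−1.12). The calls of Cdh1, Esrp1, Itgb3 and Lama1 were kept. Those of Cdh3 and Itga1 were lost without control ESC sample 1 (adjusted p = 0.0502 and 0.0997), and those of Cd24a and Cd9 without control PGCLC sample 2 among other arrays, Itgb5 without control ESC sample 1 or control PGCLC sample 1, and Nid1 without either control ESC array.

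By chromosome, 5.02% of 617 X-linked genes were higher and 6.81% were lower, against 4.64% and 3.72% of all genes. Chromosome 8 had the largest share of higher genes, 7.19%. These shares are given as description.

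The change from ESC to PGCLC was set against that of Tfap2c knockout cells, which share no array with it, for genes where the difference between the 2 changes passed. These were 27 of 18193 genes (0.148%). In 21 of them the control change was the higher value and in 6 the lower, and 26 also differed between control PGCLCs and control ESCs. Rhox6 rose by 5.15 in control cells and differed by −0.10 in knockout cells. Rhox9 rose by 5.36 and differed by 0.38, Calcoco2 by 4.50 and 1.21, Chdh by 4.37 and −0.10, and Hey1 by 3.25 and 0.44. Of the guidance receptors Erbb3 rose by 2.05 in control cells and differed by 0.00 in knockout cells, and Cxcr4 by 1.43 and −0.26. In the other direction Fgf4 fell by 3.10 and differed by −0.36, Cbr3 by −5.17 and −1.11, and Stmn2 by −5.28 and −1.36. Most large changes had no such difference past the test. With 2 arrays a group, a difference that did not pass does not show that the changes were equal. Lrrn4 rose by 4.0 in control cells and differed by 4.02 in knockout cells, Id2 by 4.69 and 5.58, Dkk1 by 3.85 and 4.37, Dusp4 by 3.59 and 2.90, Smad6 by 2.30 and 2.13 and Ccnd2 by 2.96 and 2.97. Klf4 fell by 4.22 in control cells and differed by −1.99 in knockout cells (adjusted p of the difference 0.113). Prdm1 rose by 1.99 and differed by 1.66. Tfap2c mRNA was at 7.28 and 6.47 in knockout ESCs and at 8.52 and 8.85 in knockout PGCLCs. Whether its probe sets lie in the deleted part is not given, so these values do not check the deletion. The study examined the deletion in the ESC lines by genotyping PCR and by staining for TFAP2C protein. The number of genes depended on single arrays, from 1 without control ESC sample 1 to 56 without control PGCLC sample 1, with 11 without control PGCLC sample 2 or control ESC sample 2 and 2 to 10 without a knockout array.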

How the data were processed

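The deposited values are log2 expression values of 8 Affymetrix mouse arrays, normalized by the authors. Of the sources for that step, the study's methods give RMA and the notes of the submitters give GCRMA. Of 45101 probe sets, 64 were controls of the manufacturer, 34945 named 1 gene, 932 named several and 9160 were not named. The values ran from 1.1 to 13.64, and array medians were 3.47 to 3.54 in the control samples. The number of arrays limits the precision.

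The 4 group means were fitted to the 8 arrays with limma 3.58.1 in R 4.3.3 (eBayes with a trend, 4 residual and 3.67 prior degrees of freedom), and two-sided p were adjusted by Benjamini-Hochberg over 18193 genes. Tables and plots used Python 3.11.15, NumPy 2.4.6, pandas 2.3.3 and Matplotlib 3.10.9. The comparison and the 46 gene lists (969 genes, 880 measured, of which 159 passed) were chosen with earlier results of these data known. Named are the 15 largest changes each way past limma without overlap, the study's marker genes, cell type markers and, per list, up to 6 members past limma by size, or the largest 2 where none passed; other members named were chosen after their values were seen. The fit was tested on simulated data. Alternatives were the 4 control arrays alone, no trend, array weights, averaging all probe sets of a gene, every probe set, no probe sets marked as shared (names ending in _s_at, _x_at or _a_at), no genes with a mean under 5, array medians subtracted, a further quantile normalization, the replicate number as a block, and each array left out. Where that leaves 1 array in a group, the lone array is assumed to vary like the other groups.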

Additional observations from a re-analysis of the deposited data

Results flagged for a closer look

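Among all genes called in control cells, 26 had a change from ESC to PGCLC that differed from that of Tfap2c knockout cells. The test was limma on the control change minus the knockout change. Only the 14 of them that are named above are listed here. For 10 the control change was the higher one, with differences of 5.25 for Rhox6 (adjusted p = 0.00549), 4.98 for Rhox9 (0.00391), 4.86 for BC048679 (0.00426), 4.47 for Chdh (0.0106), 4.29 for Plcd1 (0.0242), 4.21 for Gpat3 (0.0126), 3.30 for Calcoco2 (0.00549), 2.81 for Hey1 (0.0252), 2.05 for Erbb3 (0.0242) and 1.70 for Cxcr4 (0.047). For the others it was the lower one, with −4.06 for Cbr3 (0.0164), −3.92 for Stmn2 (0.0218), −3.59 for Laptm5 (0.049) and −2.74 for Fgf4 (0.0321). Hk1, named above without a call in control cells (0.64), differed by −2.24 in knockout cells. Its control change minus its knockout change was 2.89 (adjusted p = 0.0242). No group had enough arrays to look for single arrays far from the rest. Which genes passed this test depended strongly on single arrays, as given above. For Erbb3 and Laptm5 the differences between probe sets given above apply here too.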

How the results depend on the processing

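Under the settings that kept all control arrays the number of genes that differed ran from 1063 (without either knockout PGCLC array) to 1927 (array weights), against 1522, and 1185 passed with the 4 control arrays alone. Leaving out single arrays gave 325 to 1721 genes, 45 to 176 list genes against 159, and 1 to 56 genes whose change differed from the knockout against 27. The fold rule passed 651 to 730 genes with a control array left out, against 635. It passed 399 genes without dim genes and 397 with the mean of probe sets. Applied to each PGCLC array against each ESC array, it passed 318, of which 175 were higher and 143 lower. The genes that differed from the knockout change were 13 without dim genes. Without probe sets marked as shared Aldoc differed by 0.15 and Fgfr2 by −0.0805, opposite to the values above. Replicate numbers were not treated as pairs, since the deviations of control ESC and control PGCLC samples of the same number correlated at 0.066 and those of the other pairs of groups at −0.333 to 0.392. With the replicate number as a block 1571 genes differed, 165 list genes passed and 22 genes differed from the knockout change. The cause of these changes was not tested.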
